A study of Mus musculus with 6 samples.

Results

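The troponins and tropomyosins are the calcium switch of the muscle thin filament. They were taken here as the probe sets whose platform gene symbol is, or includes, Tnnt1, Tnnt2, Tnnt3, Tnni1, Tnni2, Tnnc1, Tnnc2, Tpm1, Tpm2 or Tpm3. This rule found all 10 genes, of 22180 with a probe set of their own, on 11 of the 41345 probe sets of the array. Tpm3 had 2 probe sets and every other member 1, and each of the 11 carried 1 gene symbol. RNA was measured from the gastrocnemius, a mixed calf muscle, of 3 transgenic and 3 WT mice, all male, 3 months old and of a background given as C57 in the labels (C57BL/6 in the methods), with 1 Affymetrix Mouse Gene 2.0 ST array per mouse. The paper describes the transgenic mice as offspring of founders that carried porcine DGAT1, an enzyme of triacylglycerol synthesis, under a porcine MCK promoter that drives expression in muscle. The sample labels instead name a DGAT1 knockout, so the groups are called transgenic and WT here. How many founder lines the transgenic mice came from is not given in the sources used here. The values are log2 expression values of a probe set, normalized between arrays by the authors.

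Tropomyosin lies along the actin filament and covers the sites that myosin binds. Troponin sits on it as a complex of a calcium-binding subunit (troponin C), an inhibitory subunit (troponin I) and a subunit that binds tropomyosin (troponin T). When calcium binds troponin C, tropomyosin shifts and contraction can begin. Slow type I fibers and fast type II fibers use products of different genes for each subunit, so these genes serve as markers of fiber type in a mixed muscle. The slow isoforms are encoded by Tnnt1, Tnni1 and Tnnc1, with Tnnc1 shared with the heart, and the fast isoforms by Tnnt3, Tnni2 and Tnnc2. Tpm3 encodes the slow and Tpm1 the fast alpha-tropomyosin, and both genes also make non-muscle isoforms by alternative splicing, which a value per gene does not separate. Tpm2 encodes beta-tropomyosin, found in slow and fast fibers, and Tnnt2 encodes the troponin T of heart and developing muscle.

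Some members of the family lie near each other in the mouse genome. In the RefSeq annotation of GRCm38.p6, Tnni2 and Tnnt3, both fast, are neighbors on chromosome 7 with 1 gene, Lsp1, between them. Slow Tnni1 and cardiac Tnnt2 are neighbors on chromosome 1 with Lad1 between them, and slow Tnnt1 and the cardiac troponin I gene Tnni3 are neighbors on chromosome 7 with 0 genes between them.

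RefSeq promoter sequences of GRCm38.p6 were matched for 8 of the 10 genes, all but Tnnt3 and Tnni2. The 250 bases before each start were searched on both strands for the MEF2 core TAAAAATA, the M-CAT element CATTCC that TEAD factors bind, the TATA box TATAAA and the E-box CANNTG that myogenic factors bind. Of the 32851 promoters of this length, 2.45% held the MEF2 core, 12.6% the M-CAT element, 12.4% the TATA box and 66.2% the E-box. The windows below belong to the matched genes among the slow and fast troponins, whose levels across mice are compared later. They are Tnni1 at chr1:135799351-135799410 (plus strand), Tnnt1 at chr7:4515976-4516035 (minus strand), Tnnc1 at chr14:31208227-31208286 (plus strand) and Tnnc2 at chr2:164779790-164779849 (minus strand). Capitals mark the MEF2 core in Tnni1, the TATA box in Tnnt1, the M-CAT element in Tnnc1 and an E-box in Tnnc2, and every window is printed 5′ to 3′ on the strand of its gene. The matches in Tnni1 and Tnnc1 lie on the opposite strand, so their capitals show the reverse complement of the motif.
Tnni1: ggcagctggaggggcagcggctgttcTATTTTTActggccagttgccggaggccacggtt
Tnnt1: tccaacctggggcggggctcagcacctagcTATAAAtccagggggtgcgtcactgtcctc
Tnnc1: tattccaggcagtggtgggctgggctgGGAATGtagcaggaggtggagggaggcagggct
Tnnc2: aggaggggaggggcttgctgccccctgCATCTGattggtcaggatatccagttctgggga
The matches begin 44 bases before the start of the first of 2 promoters matched for Tnni1, which lies inside the annotated gene. They begin 30 bases before the start of the Tnnt1 promoter, 58 before that of Tnnc1 and 88 before that of Tnnc2. The 3 slow genes thus differed in which of the first 3 motifs their window held, while E-boxes were found before every matched member. A match is a description of the letters and not of a bound site.

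None of the troponins or tropomyosins passed the study threshold. A probe set is past this threshold here when its unadjusted p is under 0.05 and its change is at least 1.5-fold. Of the 11 member probe sets limma's moderated test put 0 past it and the methods' t-test also 0, beside backgrounds of 1.49% (limma) and 0.68% (the methods' t-test) of all probe sets. Dropping the fold minimum left the count of members at 0 with either test, beside 2.9% (limma) and 3.3% (the methods' t-test) of all probe sets. With limma's arrayWeights 1 member, Tnnc2, had an unadjusted p under the threshold (log2 fold change -0.31, unadjusted p = 0.0348 from limma), beside 15.7% of all probe sets. Without such weights the smallest adjusted p that limma gave on the whole array was 1, so every member had 1 as well. In transgenic mice 5 member probe sets had higher and 6 lower means, with a median log2 fold change of -0.03, next to -0.01 over all probe sets. The largest difference was 0.20, for Tnnt2. The 95% confidence interval of the fold change lay within 1.5-fold either way for 7 of the 11, and the intervals spanned 0.639 to 1.62 in all.

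**Figure D1:**
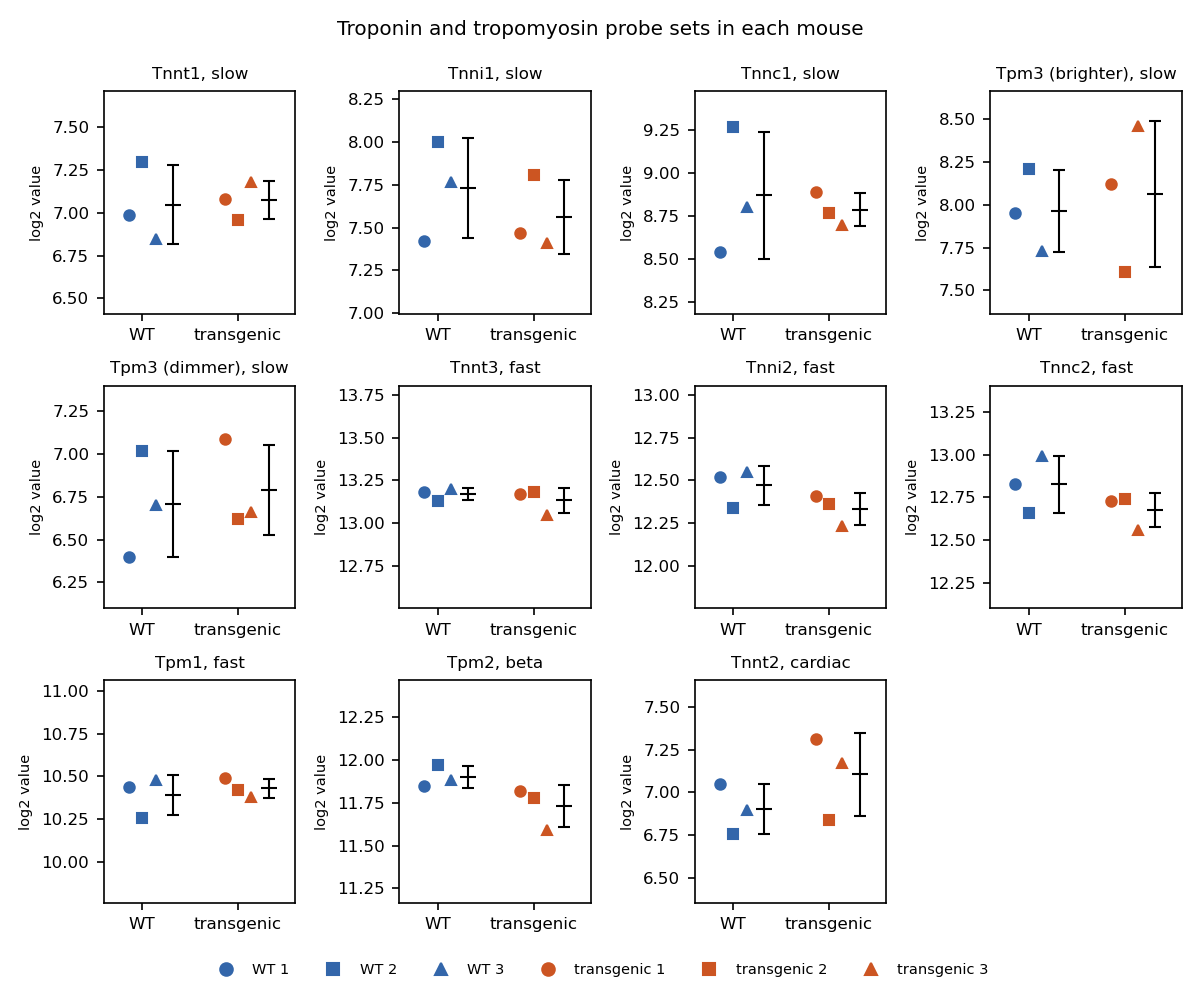
Log2 value of each of the 11 member probe sets in each mouse (points, with the marker giving the replicate), by group on the horizontal axis, with the mean and SD of 3 mice as a bar beside the points. Every panel spans the same 1.3 log2 units, and the groups overlap in all panels except that of Tpm2.

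On the log2 scale, and in the order of replicates 1 to 3, the slow troponin T gene Tnnt1 measured 7.08, 6.96 and 7.18 in the transgenic group and 6.99, 7.30 and 6.85 in the WT group. The means of 7.07 ± 0.11 and 7.05 ± 0.23 (SD, n = 3 each) lay closer together than the mice within a group (log2 fold change 0.03 with a standard error, SE, of 0.17). Both the highest and the lowest value of Tnnt1 came from WT mice. The slow troponin I gene Tnni1 measured 7.47, 7.81 and 7.41 in the transgenic group and 7.42, 8.0 and 7.77 in the WT group. The log2 fold change of Tnni1 was -0.16 (SE 0.20), a fold of 0.893 with a 95% confidence interval of 0.639 to 1.25. The groups overlapped, and the mouse with the lowest value was transgenic replicate 3, close to WT replicate 1. The slow troponin C gene Tnnc1 measured 8.89, 8.77 and 8.70 in the transgenic group and 8.54, 9.27 and 8.80 in the WT group, with a log2 fold change of -0.09 (SE 0.21). All 3 transgenic values of Tnnc1 lay inside the WT range. Without WT replicate 2 its log2 fold change was 0.11 instead.

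The slow tropomyosin gene Tpm3 was the symbol of 2 probe sets. On the brighter one the values were 8.12, 7.61 and 8.46 in transgenic and 7.95, 8.21 and 7.73 in WT mice (log2 fold change 0.10, SE 0.25). On the dimmer one they were 7.09, 6.62 and 6.66 in transgenic and 7.02 in WT replicate 2, with 6.40 and 6.70 in WT replicates 1 and 3 (log2 fold change 0.08, SE 0.22). Both probe sets had overlapping groups, but they ordered the transgenic mice differently, with replicate 3 highest on the brighter and replicate 1 on the dimmer probe set. The RefSeq annotation lists 3 pseudogenes named as Tpm3 copies (Tpm3-rs2, Tpm3-rs3 and Tpm3-rs7). Tpm3 lies on chromosome 3 and Tpm3-rs7 on chromosome 14. The number of the brighter probe set, 17302606, lies between those of Tnnc1 on chromosome 14 (17298379) and Tnnc2 on chromosome 2 (17394267). That of the dimmer one, 17399583, lies between those of Tnnc2 and of Tpm2 on chromosome 4 (17424656). Which locus each of the 2 probe sets was designed on was not tested, and this matters most for the brighter one. Signal shared with such copies was not separated from that of Tpm3, so its values are uncertain.

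The fast troponin T gene Tnnt3 had nearly the same value in all mice, at 13.17, 13.18 and 13.05 in transgenic and 13.18, 13.13 and 13.20 in WT mice. This is a log2 fold change of -0.03 (SE 0.13), with a 95% confidence interval of 0.788 to 1.21 for the fold. The fast troponin I gene Tnni2 measured 12.41, 12.36 and 12.23 in the transgenic group and 12.52, 12.34 and 12.55 in the WT group, and the fold was 0.909 (95% confidence interval 0.721 to 1.15). All 3 transgenic mice were below the WT mean of Tnni2, and WT replicate 2 lay among them. The fast troponin C gene Tnnc2 measured 12.73, 12.74 and 12.56 in the transgenic group and 12.83, 12.66 and 12.99 in the WT group, and the fold was 0.902 (95% confidence interval 0.701 to 1.16). The fast tropomyosin gene Tpm1 measured 10.49, 10.42 and 10.38 in the transgenic group and 10.44, 10.26 and 10.48 in the WT group, with a log2 fold change of 0.03 (SE 0.14). With limma's arrayWeights this value turned to -0.04. The brightest probe set of any array reached 14.11 to 14.17, so the fast troponins lie near the top of the measured range. Whether differences are compressed there was not tested.

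Tpm2, the beta-tropomyosin gene, was the 1 member whose groups did not overlap. It measured 11.82, 11.78 and 11.59 in the transgenic group and 11.85, 11.97 and 11.88 in the WT group, means of 11.73 ± 0.12 and 11.90 ± 0.07 (SD, n = 3 each). All transgenic mice were thus below all WT mice, by as little as the step from 11.85 to 11.82. The log2 fold change was -0.17 (SE 0.14, unadjusted p = 0.271 and adjusted p = 1 from limma), which did not pass the threshold. Over all probe sets 7.21% had groups that did not overlap, so 1 of 11 is near the background.

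Tnnt2, the troponin T gene of heart and developing muscle, measured 7.31, 6.84 and 7.17 in the transgenic group and 7.05, 6.76 and 6.90 in the WT group. Its log2 fold change of 0.20 (SE 0.18) was the largest among the members, with a 95% confidence interval of 0.861 to 1.54 for the fold. The groups overlapped, since transgenic replicate 2 lay below WT replicates 1 and 3.

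**Figure D2:**
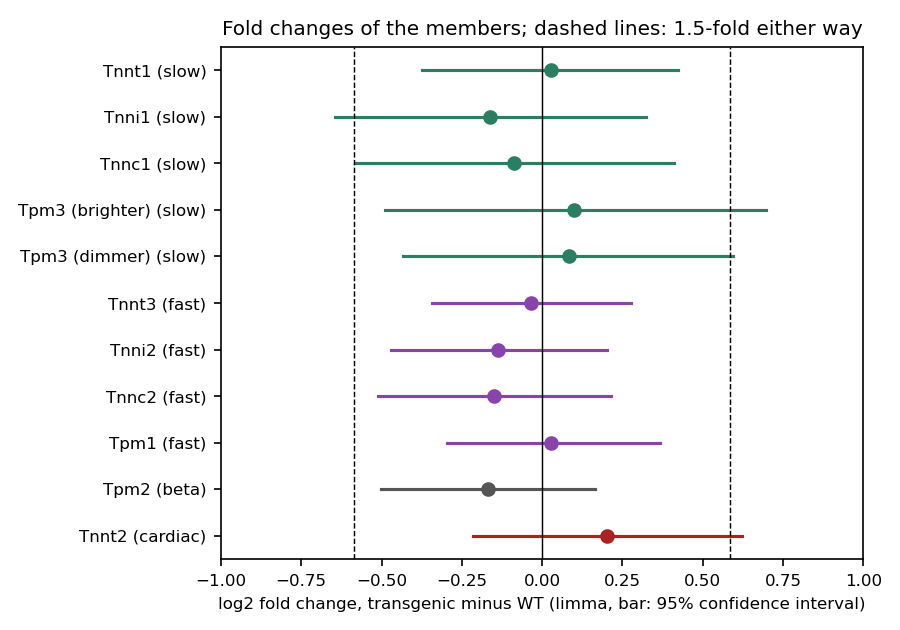
Log2 fold change of each member probe set, transgenic minus WT, from limma (points) with its 95% confidence interval (bars), colored by isoform class, with dashed lines at 1.5-fold either way. Every interval includes 0, and 7 of the 11 lie between the dashed lines.

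The fast genes varied less between mice of one group than the slow genes. The pooled standard deviation within groups was 0.06 for Tnnt3, 0.10 for Tnni2, 0.14 for Tnnc2 and 0.09 for Tpm1. For the slow genes it was 0.18 for Tnnt1, 0.26 for Tnni1, 0.27 for Tnnc1 and 0.35 and 0.29 for the probe sets of Tpm3, around the median of 0.25 over all probe sets. The share of all probe sets with a smaller standard deviation was 1.04% for Tnnt3 and 70.7% for the brighter probe set of Tpm3. Which locus that probe set measures is uncertain, as described above. How far the lower spread of the fast genes follows the brightness of their probe sets was not tested.

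Whether the balance of slow and fast isoforms differed between the groups was asked for each subunit. The slow minus the fast log2 value was taken in each mouse, and the difference between groups was tested by an exact permutation test (two-sided, 4 pairs; a p of 0.1 is the least that groups of 3 can give). Only the difference between groups is read, since log2 values of 2 probe sets are not comparable in level. For troponin T, Tnnt1 minus Tnnt3 was -6.09, -6.22 and -5.87 in transgenic and -6.19, -5.83 and -6.35 in WT mice, a difference of 0.06 (SE 0.19, exact permutation p = 0.8). For troponin I, Tnni1 minus Tnni2 was -4.95, -4.54 and -4.82 in transgenic and -5.11, -4.35 and -4.78 in WT mice, a difference of -0.03 (SE 0.25, exact permutation p = 0.9). For both subunits the highest balance was that of WT replicate 2. For troponin C, Tnnc1 minus Tnnc2 was -3.84, -3.97 and -3.86 in transgenic and -4.29, -3.39 and -4.19 in WT mice, a difference of 0.06 (SE 0.29, exact permutation p = 1). The transgenic mice were close to each other here, inside the WT range. For tropomyosin, Tpm3 minus Tpm1 was -2.38, -2.80 and -1.92 in transgenic and -2.50, -2.05 and -2.76 in WT mice, a difference of 0.07 (SE 0.33, exact permutation p = 0.8). Tpm3 was taken here by its brighter probe set, whose locus is uncertain as described above. With the dimmer probe set of Tpm3 the tropomyosin difference was 0.05 (exact permutation p = 0.9). In none of the 4 pairs was the difference larger than the spread between mice, and with p at or above 0.8 none would pass after adjustment.

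WT replicate 2 set much of the spread in the balance. It had the highest slow minus fast value of all mice in the 3 troponin pairs, and the highest value of all mice for Tnnt1, Tnni1 and Tnnc1. In the tropomyosin pair it had the highest value of the WT mice, so leaving it out could only raise the difference in all 4 pairs. Without WT replicate 2 the transgenic mice had a higher slow to fast balance in all 4 pairs. The difference was 0.21 for troponin T, 0.17 for troponin I, 0.35 for troponin C and 0.26 for tropomyosin. The exact permutation p was then 0.3, 0.5, 0.1 and 0.5, where 0.1 is the least that groups of 3 and 2 can give. Leaving out WT replicate 3 instead made the transgenic balance lower in all 4 pairs, at -0.06, -0.05, -0.05 and -0.09 in the same order. The mean of 12 other slow fiber genes, described below, was also highest in WT replicate 2. It was 8.54 there, compared with 7.96 to 8.36 in the others. The fast myosin genes Myh1 and Myh2 were highest in WT replicate 2 as well, at 12.05 and 11.80. The mean of 14 other fast fiber genes was not, at 12.35 there and 12.53 in WT replicate 3. The array of WT replicate 2 had the highest median, 5.88, compared with 5.71 to 5.85 in the others. The part of the array in this pattern was not tested. In RNA of whole muscle, more slow fibers and more slow isoform RNA per fiber cannot be told apart.

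**Figure D3:**
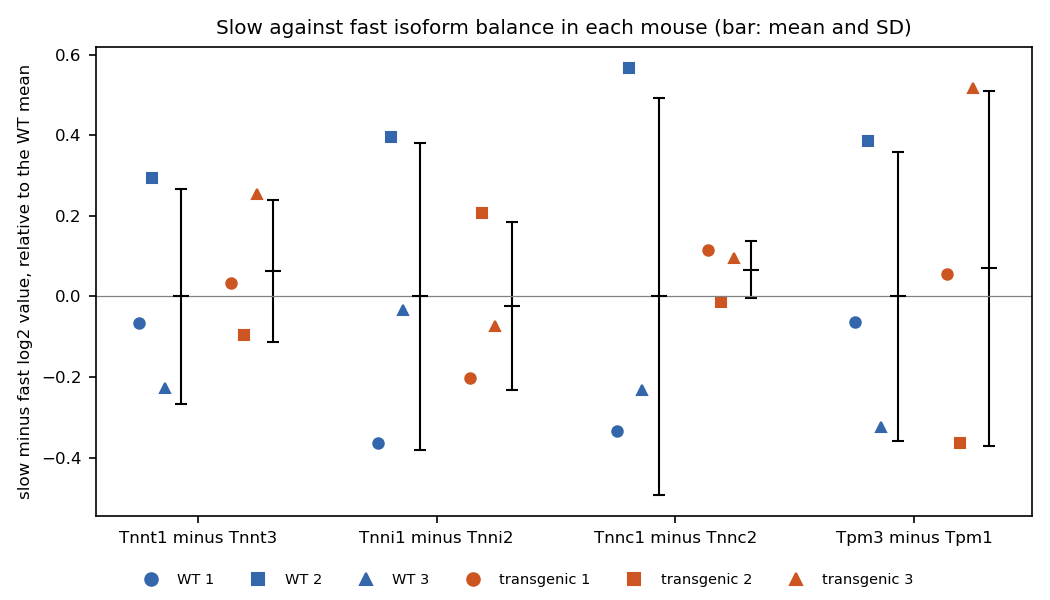
Slow minus fast log2 value of each isoform pair in each mouse (points, with the marker giving the replicate), relative to the WT mean of that pair, with the mean and SD of 3 mice as bars. WT replicate 2 is the highest mouse in the 3 troponin pairs, and the group means differ by 0.03 to 0.07 in size. Tpm3 is taken by its brighter probe set, whose locus is uncertain.

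Subunits of one complex were then compared across the 6 mice, in 9 relations. None of the 9 had an adjusted p under 0.05. Among the fast subunits, Tnni2 and Tnnc2 had a Pearson correlation of 0.94 (exact permutation p = 0.00694, adjusted p = 0.0625 over the 9 relations) and a Spearman correlation of 0.94 (exact permutation p = 0.0167, adjusted p = 0.05), and r was 0.90 without the 2 mice farthest from the median of Tnni2. Tnnt3 had r = 0.85 with Tnni2 (exact permutation p = 0.0167, adjusted p = 0.0667) and r = 0.86 with Tnnc2 (exact permutation p = 0.0222, adjusted p = 0.0667). Their Spearman correlations were 0.83 (exact permutation p = 0.0583, adjusted p = 0.131) and 0.94 (exact permutation p = 0.0167, adjusted p = 0.05), and r without the 2 farthest mice was 0.61 and 0.93. In all 3 fast genes transgenic replicate 3 was the lowest and WT replicate 3 the highest mouse. After quantile normalization Tnni2 and Tnnc2 had r = 0.89, but Tnnt3 had r = 0.45 with Tnni2 and 0.24 with Tnnc2. Some other bright muscle genes took the same lowest and highest mouse. An example is the muscle creatine kinase gene Ckm, at 13.33 in transgenic replicate 3 and 13.63 in WT replicate 3. For the actin gene Acta1 and most of the other fast fiber genes described below, WT replicate 2 was the lowest mouse instead. The mean of 8 markers of skeletal myofibers was 12.53 and 12.79 in these mice and between them in the others. The part of the array in this order was not tested.

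Among the slow subunits, Tnni1 and Tnnc1 had r = 0.75 (exact permutation p = 0.0597, adjusted p = 0.134) and a Spearman correlation of 0.71 (exact permutation p = 0.136, adjusted p = 0.245), and r was 0.36 without transgenic replicate 3 and WT replicate 2. Tnnt1 had r = 0.62 with Tnnc1 (exact permutation p = 0.176, adjusted p = 0.265) and r = 0.13 with Tnni1 (exact permutation p = 0.796, adjusted p = 0.895), with Spearman correlations of 0.31 (exact permutation p = 0.564, adjusted p = 0.846) and -0.03 (exact permutation p = 1, adjusted p = 1). Without WT replicates 2 and 3 these r were 0.19 and -0.63, but leaving out 1 mouse at a time separated them. Without WT replicate 2 alone r was -0.06 for Tnnt1 with Tnnc1 and -0.76 for Tnnt1 with Tnni1, and without WT replicate 3 alone 0.76 and 0.38, so the positive values rest on WT replicate 2. For Tnni1 and Tnnc1 r was 0.39 without WT replicate 2. After quantile normalization r was 0.82 for Tnni1 with Tnnc1 and 0.68 for Tnnt1 with Tnnc1, above the values of Tnnt3 with its fast partners. Whether slow and fast correlations differ was not tested.

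Slow and fast partners of one subunit did not move against each other in a way that held. Tnnt1 and Tnnt3 had r = -0.73 (exact permutation p = 0.0931, adjusted p = 0.168) and a Spearman correlation of -0.94 (exact permutation p = 0.0167, adjusted p = 0.05), with r = -0.88 without WT replicates 2 and 3, but r was 0.15 after quantile normalization. Tnni1 and Tnni2 had r = 0.00 (exact permutation p = 0.993, adjusted p = 0.993, Spearman correlation 0.03 with adjusted p = 1), and r was -0.23 without the 2 farthest mice. Tnnc1 and Tnnc2 had r = -0.24 (exact permutation p = 0.628, adjusted p = 0.807, Spearman correlation -0.20 with adjusted p = 0.918), and r was 0.45 without the 2 farthest mice.

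**Figure D4:**
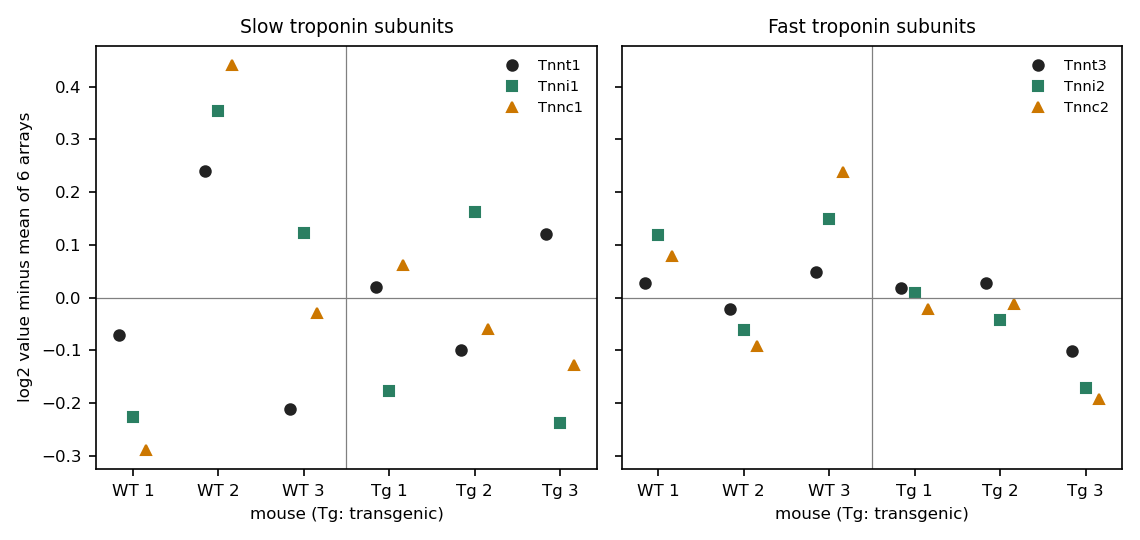
Log2 value of each slow (left) and fast (right) troponin subunit in each mouse, minus the mean of that gene over the 6 arrays. The fast subunits share their highest mouse, WT replicate 3, and their lowest, transgenic replicate 3, while the slow subunits share their highest mouse, WT replicate 2, and differ in the others.

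The genes whose pattern over the 6 arrays was most like that of the troponin I genes were looked up among 13623 other probe sets with 1 gene symbol and a mean at or above the median. These Pearson correlations over 6 arrays are a description. For Tnni2 the 5 nearest were Helz (0.999), Asap3 (0.993), Sirt3 (0.992), Ccng1 (0.990) and Casp9 (0.988), none of them a contractile gene. Tnnc2 came at rank 99 and Tnnt3 at rank 697. Of 14 other fast fiber genes, 4 had a correlation with Tnni2 above 0.8, and the median was 0.71. They were the actinin gene Actn3 (0.92), the light chain gene Mylpf (0.91), the calcium buffer gene Pvalb (0.91) and Myoz1 (0.81). Myoz1 came at rank 1071, or 7.86% of the probe sets compared, so correlations above 0.8 were common. For Tnni1 the 5 nearest were Vmn2r29 (0.994), 1700029P11Rik (0.992), Gm17250 (0.991), the perforin gene Prf1 (0.984) and 4921531P14Rik (0.983). Tnnc1 came at rank 602, and the slow myosin gene Myh7 at rank 468 (0.79). The 11 other slow fiber genes in this comparison had a median correlation with Tnni1 of 0.09, and the fast myosin gene Myh1 had 0.83. Tnnt2, which only Lad1 separates from Tnni1 on its chromosome, had -0.88, at rank 12676 of the 13623. Many other probe sets thus had a lower correlation with Tnni1.

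Of 18 thin filament partners of the troponins, 1 was past the study threshold as higher and 1 as lower in transgenic mice. This is beside 1.49% of all probe sets in either direction, and the median log2 fold change of the list was -0.03. The groups did not overlap for 3 of the 18, beside 7.21% of all probe sets. These were Neb (-0.10), Nrap (-0.19) and the brighter probe set of Xirp2 (-0.36), all lower in transgenic mice. The dimmer probe set of Xirp2 had 0.25, with overlapping groups. Tpm4, which encodes a tropomyosin of the non-muscle cytoskeleton, measured 9.64, 9.17 and 9.91 in the transgenic group and 9.18, 8.79 and 8.79 in the WT group on its brighter probe set. The transgenic mean was 1.57 times the WT mean (0.66 on the log2 scale, SE 0.23, unadjusted p = 0.0242 and adjusted p = 1 from limma), and transgenic replicate 2 was just below WT replicate 1. The dimmer probe set of Tpm4 had a log2 fold change of 0.20 (SE 0.18), at 8.78, 8.27 and 8.70 in the transgenic and 8.42, 8.31 and 8.42 in the WT group. Tpm4 lies on chromosome 8. The number of its dimmer probe set, 17502378, lies between those of Tnnt1 on chromosome 7 and Tpm1 on chromosome 9. That of the brighter one, 17548023, lies above both. Which locus each was designed on was not tested. Tpm4 did not pass the methods' t-test (unadjusted p = 0.0595 on the brighter probe set), and it fell short of the study threshold when transgenic replicate 1 (log2 fold change 0.62), transgenic replicate 3 (0.49), WT replicate 2 (0.59) or WT replicate 3 (0.59) was left out.

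Actc1, the cardiac alpha-actin gene that developing skeletal muscle also uses, measured 11.08, 10.25 and 9.79 in the transgenic group and 11.61, 10.72 and 11.60 in the WT group. The fold was 0.521 (-0.94 on the log2 scale, SE 0.39, unadjusted p = 0.045 and adjusted p = 1 from limma). The groups overlapped, since transgenic replicate 1 lay above WT replicate 2, and Actc1 did not pass the methods' t-test (unadjusted p = 0.122). It fell short of the study threshold when transgenic replicate 2 (log2 fold change -0.88), transgenic replicate 3 (-0.65), WT replicate 1 (-0.79) or WT replicate 3 (-0.79) was left out. The skeletal alpha-actin gene Acta1, the main actin of adult skeletal thin filaments, had a log2 fold change of -0.02 (SE 0.14) and the nebulin gene Neb of -0.10 (SE 0.13).

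**Figure D5:**
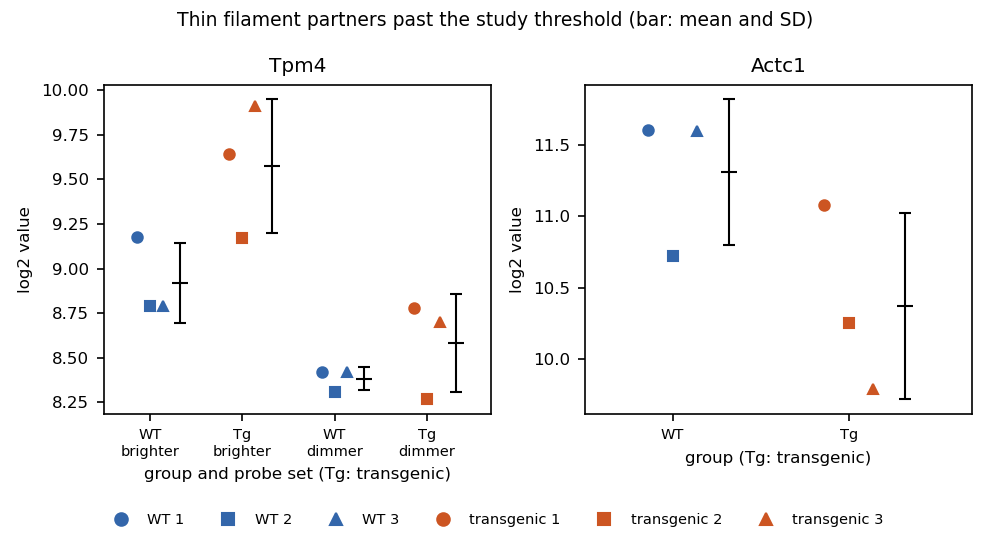
Log2 values of Tpm4 on its brighter and dimmer probe sets (left) and of Actc1 (right) in each mouse (points, with the marker giving the replicate), with the mean and SD of 3 mice as bars. The groups overlap on all 3 probe sets.

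Among the other slow fiber genes 0 of 12 were past the study threshold, with lower means in transgenic mice for 9 and a median log2 fold change of -0.30. The groups did not overlap for 4 of them, the slow myosin heavy chain gene Myh7, the light chain genes Myl2 and Myl3 and the small heat shock protein gene Hspb7, against the 7.21% of all probe sets given above. The largest differences were those of Csrp3 (-0.45) and Hspb7 (-0.41). The 4 slow members had a median of -0.03, and how they differ from this list was not tested. Lower means were also the more frequent in the skeletal myofiber and cardiac lists below, for 7 of 8 genes in each. The mean of the slow list was 7.96 to 8.22 in transgenic and 8.11 to 8.54 in WT mice. Among the other fast fiber genes 0 of 14 were past the threshold, with lower means in transgenic mice for 12 and a median of -0.04, and the largest differences were those of the fast myosin genes Myh2 (-0.24) and Myh1 (-0.23). Of 20 measured regulators of troponin genes and fiber type 0 were past the threshold, with a median of -0.02. The myogenic factor gene Myod1 (-0.54) and the fatty acid receptor gene Ppara (-0.53) had the largest differences, both short of the fold minimum. The MEF2 genes Mef2a, Mef2c and Mef2d had 0.08, -0.04 and 0.16, and the TEAD genes Tead1 and Tead4 had -0.04 and 0.20.

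Markers of the tissue and of other cell types were checked beside the members. Those of skeletal myofibers were bright on all arrays, with list means of 12.53 to 12.71 in transgenic and 12.66 to 12.79 in WT mice, and 0 of 8 were past the threshold (largest differences Ttn -0.17 and Mylpf -0.15 on the log2 scale). Cardiac markers, which could bear on Tnnt2 and Tnnc1, had 0 of 8 past it and list means of 5.63 to 5.72 in transgenic and 5.84 to 5.95 in WT mice, and 3 of the 8 were at or above the median of the array. The largest differences were those of Myh6 (-0.50) and Myl4 (-0.47), so the cardiac list mean was lower in all transgenic mice while Tnnt2 had a higher and Tnnc1 a lower mean. Markers of developing or regenerating fibers had 1 of 8 past it, Actc1 again, with list means of 6.58 to 6.74 and 6.72 to 6.88. Smooth muscle markers, which matter for Tpm1 and Tpm2, had 0 of 8 past it, and their list means were lowest in replicate 2 of both groups (7.72 and 7.78, against 8.06 to 8.17 in the other 4 mice), with the largest differences for Cnn1 (-0.29) and Smtn (0.23). Fibroblasts express Tpm4. Their markers had 1 of 8 past it, Col1a2 (1.83-fold), which did not pass the methods' t-test (unadjusted p = 0.0798). The transgenic mean was higher for 6 of the 8 and lower for 2, with a median log2 fold change of 0.08. The fibroblast list means were 9.46 to 9.72 in transgenic and 9.20 to 9.47 in WT mice. Adipocyte markers had 1 of 7 measured past it, Plin4 (0.636-fold), with list means of 8.06 to 8.61 and 7.89 to 8.55. Plin4 was the only one with a lower transgenic mean, since the other 6 had higher means and the list median was 0.25. Hepatocyte markers had 0 of 8 past it and spread most, from 5.39 to 9.17 in transgenic and from 5.30 to 9.18 in WT mice, with the largest differences for Fgg (0.97) and Serpina1c (0.84). The part of these cell types in the values of the members was not tested.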

How the data were processed

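Gastrocnemius RNA of 3 transgenic and 3 WT mice was hybridized by the authors to 1 array per mouse. For each of 41345 probe sets the authors deposited 1 log2 value per array. Per the methods they were acquired with GCOS and normalized between arrays in GeneSpring GX, and the submitters' processing notes name RMA. The scanner files were not used here, so background correction and probe summaries stay as the authors made them, and arrays give no read depth: their number limits the precision. Probe sets were named by the platform annotation. Where a gene had several probe sets with 1 symbol, that with the highest mean was taken. Groups were compared with limma 3.58.1 in R 4.3.3 (lmFit and eBayes) over all probe sets, with Benjamini-Hochberg adjustment, and the fit was checked on simulated data. The study threshold is an unadjusted p under 0.05 with a fold of at least 1.5. Single values were tested by exact permutation tests with numpy 2.4.6 and scipy 1.17.1. Named genes were all members, genes of each list past the threshold, otherwise the 2 with the largest change, and the 5 genes most like Tnni1 and Tnni2. Some genes were named after their values were seen: Acta1, Neb and Tpm3 copies as background, the MEF2 and TEAD genes for the motifs searched, and the genes whose groups did not overlap or whose correlation stood out. The members and lists were chosen with earlier results of these data known. That the mice are biological replicates comes from the labels. Alternatives were the methods' t-test, a replicate block, arrayWeights, quantile normalization, median centring, a filter on dim probe sets, eBayes with trend and robust settings, the mean of all probe sets of a gene, and leaving out each mouse.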

Additional observations from a re-analysis of the deposited data

How the results depend on the processing

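The count of 0 members past the study threshold was the same under all 7 other settings of the fit and without each mouse in turn. The count of 0 relations with an adjusted p under 0.05, taken from the Pearson correlations, stayed 0 under quantile normalization and with the mean of all probe sets. It stayed 0 without each mouse too, but this shows little, since exact permutation over so few mice rarely allows less. Tnnt1 and Tnnt3 had r = -0.98 without transgenic replicate 3, with an adjusted exact permutation p of 0.075. The count over all probe sets, 618, was 281 by the methods' t-test, 146 without dim probe sets (of 20673), 2610 with arrayWeights, and 732 to 1335 without 1 mouse, highest without WT replicate 2 and next without WT replicate 1 (1106). Fewer probe sets were tested under the filter, and the cause of the other changes was not tested. The differences in isoform balance are near 0 and changed sign when 1 mouse was left out, ranging from -0.06 to 0.21 for troponin T, from -0.21 to 0.17 for troponin I, from -0.10 to 0.35 for troponin C and from -0.16 to 0.29 for tropomyosin. The sign of the log2 fold change also turned for Tnnt1 (-0.07 to 0.15 without 1 mouse, and -5.9e-05 with quantile normalization), Tnnt3 (-0.06 to 0.01), Tnnc1 (-0.25 to 0.11), Tpm1 (-0.03 to 0.08, and -0.04 with arrayWeights) and both probe sets of Tpm3 (-0.10 to 0.33 and -0.07 to 0.24). Tnnc2 moved from -0.15 to -0.31 with arrayWeights. The correlation of Tnnt1 and Tnnt3 turned from -0.73 to 0.15 with quantile normalization. Leaving out 1 mouse gave ranges of -0.76 to 0.38 for Tnnt1 and Tnni1, -0.06 to 0.79 for Tnnt1 and Tnnc1, -0.52 to 0.28 for Tnni1 and Tnni2 and -0.55 to 0.05 for Tnnc1 and Tnnc2. The replicate numbers of the labels were not taken as pairs, since the methods use an unpaired test. Same-numbered mice deviated from their group means with correlations of 0.33, 0.40 and -0.17. Differently numbered mice of the 2 groups had correlations of -0.46 to 0.17. The same-numbered mice of replicates 1 and 2 thus matched best, while transgenic replicate 3 correlated best with WT replicate 1. Whether the numbers mark pairs is not settled by this. With the replicate block 921 probe sets and 0 members were past the threshold, and the isoform balances were unchanged in size, with p of 0.75, 0.75, 1 and 0.75 from an exact sign-flip test, whose smallest p is 0.25. With 3 mice per group the fold intervals of Tnni1, Tnnt2 and both probe sets of Tpm3 reach past 1.5-fold, so a change of that size in these genes is not shown to be absent.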
